A study of Mus musculus with 8 samples.

Results

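The metalloproteinases that cut the extracellular matrix and the inhibitors that hold them in check were followed in RNA sequencing of mouse skeletal muscle. Genes were taken by symbol: every row of the deposited gene table named Adamts, Mmp or Timp with a number, 42 of 36048 genes, of which 18 were Adamts, 20 Mmp and 4 Timp genes. This rule uses no measured value. The libraries came from satellite cells (SC, the muscle stem cells that lie under the basal lamina of a fibre; 2 libraries, numbered 1 and 3), from endothelial cells (EC, the lining of blood vessels; 3 libraries) and from single muscle fibres (SMF; 3 libraries). SC and EC were obtained by fluorescence-activated sorting from hindlimb muscle, at about 100000 cells a library, whereas an SMF library held 100 intact fibres chosen by hand from the extensor digitorum longus after 3 h of rest. No strain, age, sex, genetic change or treatment is given in the labels for any group. Muscle and isolation differed together with the population, and their parts in any difference cannot be told apart. Whether each replicate is another animal is not stated in the labels, and the p-values therefore cover only the spread between the 8 libraries, which can be technical. Values of a population are listed in the order of its replicate numbers.

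Matrix metalloproteinases (MMPs) and ADAMTS proteases (a disintegrin and metalloproteinase with thrombospondin motifs) are zinc enzymes of the metzincin clan, made as inactive precursors and activated outside the cell or on their way to its surface. MMPs cut collagens, gelatin, laminins and many other proteins, while several ADAMTS enzymes cut proteoglycans such as versican and aggrecan. Tissue inhibitors of metalloproteinases (TIMPs) bind the catalytic zinc site and block it. In muscle these enzymes remodel the basal lamina around fibres, the niche of satellite cells and the matrix around capillaries.

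The catalytic site is shown first, because it is what makes these genes 1 functional group. The coding sequence of all 38 protease genes, read in the longest frame of their GENCODE vM39 transcripts, held the metzincin zinc-binding pattern in which 3 histidines hold the metal, and none of the Timp transcripts held it. The stretches of 33 bases below belong to the proteases on which the results turn. They run from 5′ to 3′, and capitals mark the 3 histidine codons.
Adamts1: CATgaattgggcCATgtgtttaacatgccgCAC
Adamts4: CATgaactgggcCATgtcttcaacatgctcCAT
Adamts5: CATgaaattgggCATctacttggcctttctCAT
Adamts8: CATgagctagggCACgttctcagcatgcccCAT
Adamts9: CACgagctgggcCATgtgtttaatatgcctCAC
Adamts15: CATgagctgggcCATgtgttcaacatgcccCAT
Adamts20: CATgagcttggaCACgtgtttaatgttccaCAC
Mmp2: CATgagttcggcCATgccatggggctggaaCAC
Mmp14: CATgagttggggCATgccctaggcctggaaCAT
Mmp15: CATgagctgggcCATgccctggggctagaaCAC
Mmp28: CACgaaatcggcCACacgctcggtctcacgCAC
The stretches of Mmp14 and Mmp15, which code for the first and second membrane-type MMP, shared 27 of 33 bases. Those of the neighbouring genes Adamts8 and Adamts15 also shared 27 of 33, while those of the neighbouring genes Adamts1 and Adamts5 shared 20 of 33. Such counts were not particular to these pairs: Mmp15 shared 29 of 33 with Mmp2, and Adamts15 shared 30 of 33 with Adamts4. As described next, Mmp14 and Mmp15 were distributed over the populations in different ways.

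Levels are given as FPKM (fragments counted per kilobase of transcript and scaled to the library's total), a unit per length in which different genes can be set beside each other. Of the 42 genes, 22 reached 1 FPKM in at least 2 libraries and were tested: 12 Adamts, 7 Mmp and 3 Timp genes. The other 20 stayed at or below 2.74 FPKM in every library, the highest being Adamts14 in SC replicate 3. Among those tested, only Adamts1, Adamts4, Mmp2, Mmp15, Timp2 and Timp3 reached 1 FPKM in 2 or more SMF libraries. The others passed the filter through the sorted cells, which tilts their comparisons with SMF towards those cells. Adamts2, Adamts8 and Adamts20 passed it through SC alone and Adamts6, Mmp28 and Timp4 through EC alone, which favours calls towards that population. The deposited coverage corresponds to 278 to 368 aligned megabases in SC and EC libraries and 525 to 581 in SMF libraries, so that 1 fragment on a transcript of 1 kb was worth 0.272 to 0.360 FPKM in SC and EC and 0.172 to 0.190 FPKM in SMF. The populations matched their labels by marker genes, though fibre markers also had some level in SC. The 6 fibre markers summed to 27268 to 29698 FPKM in SMF, 155 and 245 FPKM in SC and 10.2 to 17.1 FPKM in EC. The part of fibre RNA in other SC levels was not tested. Pax7 had 93.6 and 118 FPKM in SC, was listed at 0 in every EC library and had at most 0.35 FPKM in SMF, while Cdh5 had 460 to 510 FPKM in EC against at most 4.08 FPKM in SC and 1.82 FPKM in SMF. EC replicate 2 stood apart from the other EC libraries: its summed pericyte and smooth muscle markers were 226 FPKM against 580 and 698, and its summed immune markers 9.98 FPKM against 89.3 and 120 FPKM. Results that rest on EC are therefore also given without it where they moved. In bulk libraries, fewer cells of a type and less RNA per cell cannot be told apart.

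Summed over all 42 genes, the level was 310 and 305 FPKM in SC, 423, 443 and 432 FPKM in EC and 35.3, 36.6 and 36.0 FPKM in SMF. The families contributed differently. Mmp genes summed to 75.0 ± 7.88 FPKM in SC (SD, n = 2), 36.9 ± 5.73 FPKM in EC and 3.71 ± 0.74 FPKM in SMF (SD, n = 3 each). Timp genes summed to 85.4 ± 5.44 FPKM in SC (SD, n = 2), 236 ± 20.3 FPKM in EC and 12.9 ± 2.21 FPKM in SMF (SD, n = 3 each). Inhibitor transcripts thus made up 28.8% and 26.7% of the summed level in SC, 54.5%, 58.3% and 50.6% in EC and 29.9%, 40.8% and 36.6% in SMF. The EC shares lay above all SC and SMF shares, and no test was run on them. A handful of genes carried most of each sum. Adamts1, Timp2 and Mmp2 together held 59.3% and 61.8% in SC, while Timp3 alone held 38.2% to 38.7% in EC and Adamts1 alone 36.8% to 52.9% in SMF.

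**Figure D1:**
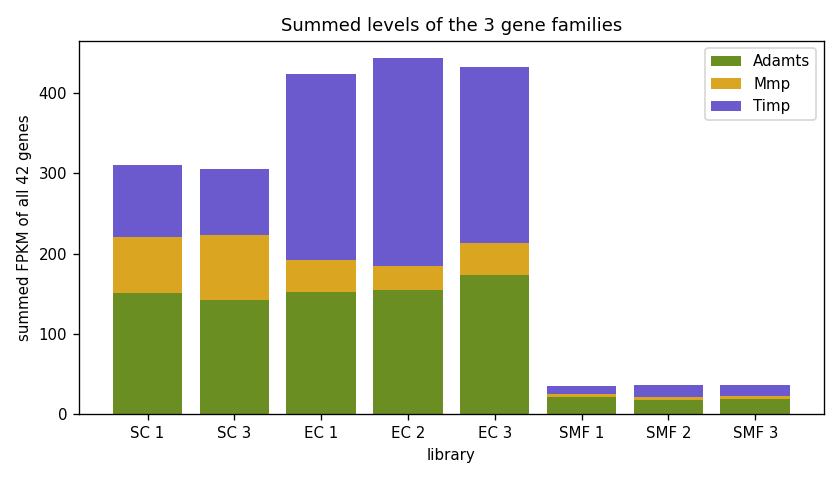
Summed FPKM of all 42 genes in each library (1 bar per library, SC, EC and SMF from left to right), split into Adamts, Mmp and Timp genes. The Timp part is widest in EC, at 219 to 258 FPKM, and all SMF bars end between 35.3 and 36.6 FPKM.

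**Figure D2:**
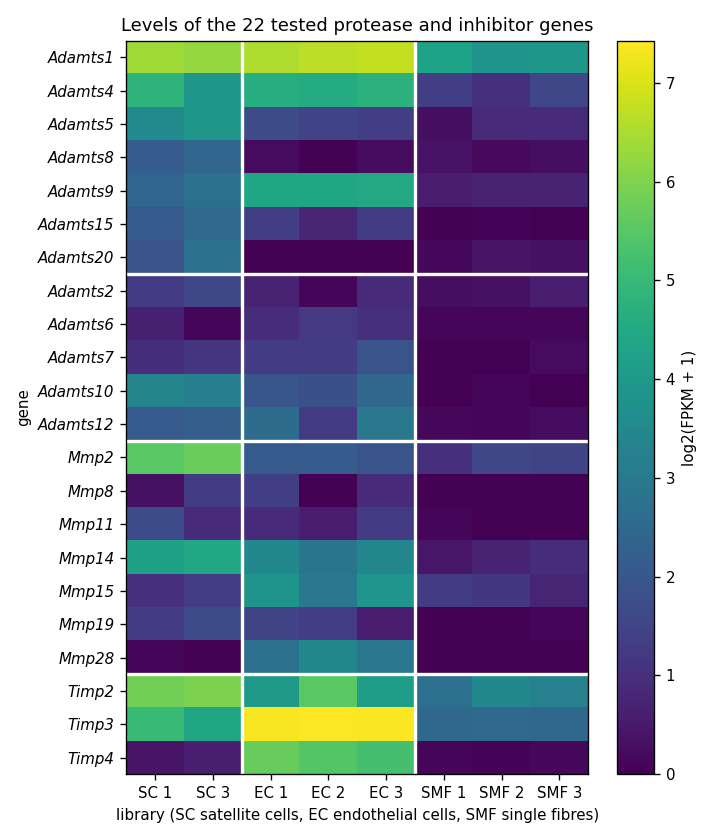
Levels of the 22 tested genes (rows, grouped by role from Adamts to Mmp and Timp) in the 8 libraries (columns), as log2(FPKM + 1) on the colour scale. Compared along each row, Mmp2, Adamts8 and Adamts20 are brightest in the SC columns and Timp3, Timp4, Mmp28 and Mmp15 in the EC columns. Most genes are dark in the SMF columns.

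Satellite cells were set against endothelial cells to ask which proteases and inhibitors mark either sorted population. Of the 22 genes, 9 were higher in SC, 6 were lower and 7 were not called by limma at an adjusted p under 0.05, where 21.2% of all 16700 tested genes were called higher and 16.4% lower. The median log2 difference, SC minus EC, was 0.21 for the 22 genes and 0.11 for all genes. Genes higher in SC were Mmp2, Mmp14, Adamts2, Adamts5, Adamts8, Adamts10, Adamts15, Adamts20 and Timp2. Those lower in SC were Adamts6, Adamts9, Mmp15, Mmp28, Timp3 and Timp4. Adamts2, Adamts8, Adamts20, Adamts6, Mmp28 and Timp4 had passed the filter only through the population where they were called higher. Log2 differences below were computed after adding 1 to each FPKM, so they understate changes of genes with low values, and adjusted p-values are from limma over all tested genes.

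Mmp2, gelatinase A, was the protease with the largest difference on the log2(FPKM + 1) scale, an order that depends on the added constant. With a constant of 0.1, Mmp28 (-5.70), Adamts20 (5.35) and Adamts8 (4.35) differed by more than Mmp2 (3.88). Its level was 44.8 and 52.2 FPKM in SC, against 3.30, 3.51 and 2.81 FPKM in EC, and 1.03, 1.97 and 1.87 FPKM in SMF. The SC libraries lay far above all others, and the mean in SC was 15.1 times that in EC (log2 difference 3.56 ± 0.20, SE, adjusted p = 9.26e-06). Mmp14, the membrane-type enzyme that activates the Mmp2 precursor at the cell surface, had 18.1 and 20.3 FPKM in SC, 9.95, 6.41 and 9.67 FPKM in EC and 0.37, 0.66 and 0.91 FPKM in SMF. The 3 populations did not overlap, with a smaller step between SC and EC than for Mmp2 (log2 difference 1.08 ± 0.23, SE, adjusted p = 0.0072), and this call was lost without SC replicate 3 (adjusted p = 0.055). Mmp2 exceeded Mmp14 2.48 and 2.57 times in SC and 2.04 to 2.99 times in SMF, but reached only 0.29 to 0.55 of the Mmp14 level in EC.

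Mmp15, the second membrane-type MMP, ran the other way. It had 0.995 and 1.55 FPKM in SC, against 13.4, 6.87 and 13.5 FPKM in EC, and 1.49, 1.29 and 0.71 FPKM in SMF. EC libraries lay above all others (SC minus EC log2 difference -2.39 ± 0.31, SE, adjusted p = 0.00072), and SC and SMF overlapped. EC replicate 2 had the lowest EC value, and without it the difference was -2.68 (adjusted p = 0.00024). Mmp28, epilysin, the secreted MMP named after epithelium, had 0.09 and 0 FPKM in SC, against 5.59, 9.64 and 6.53 FPKM in EC, and was listed at 0 in every SMF library. Its value in SC replicate 1 corresponds to 1.00 fragment of the leading transcript, so its expression in SC was at the limit of detection (log2 difference -2.95 ± 0.22, SE, adjusted p = 3.61e-05). The remaining tested Mmp genes stayed at or below 2.18 FPKM in all libraries and were not called between SC and EC. Mmp11 (stromelysin-3) had 2.18 and 0.89 FPKM in SC, 0.88, 0.51 and 1.48 FPKM in EC and 0.07, 0 and 0 FPKM in SMF. Mmp19 had 1.46 and 2.18 FPKM in SC, 1.85, 1.53 and 0.47 FPKM in EC and 0, 0 and 0.10 FPKM in SMF. Both overlapped between SC and EC and were nearly undetected in SMF. Mmp8, a collagenase best known from neutrophils, had 0.26 and 1.52 FPKM in SC, 1.59, 0 and 0.87 FPKM in EC and was listed at 0 in SMF. EC replicate 2, where it was at 0, was also the EC library with the lowest immune markers, and the part of immune cells in its level was not tested.

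The ADAMTS proteoglycanases were split as well, with 4 of 7 higher in SC, 1 lower and 2 not called. Adamts1 was the most abundant protease in every library, with 82.2 and 75.1 FPKM in SC, 93.1, 102 and 106 FPKM in EC and 18.7, 13.5 and 14.1 FPKM in SMF. SC and EC did not overlap, but the difference of -0.35 ± 0.18 (SE) was not called (adjusted p = 0.18); it was called under 1 of 3 other scalings, which leaves out the 50 top genes by level of every population (-0.71, adjusted p = 0.044). Adamts4, which cuts aggrecan and versican, had 27.5 and 14.3 FPKM in SC, 23.5, 22.8 and 26.4 FPKM in EC and 1.60, 1.04 and 2.00 FPKM in SMF. SC enclosed the EC range, and the 2 SC libraries differed by more than the 3 EC libraries did. The difference, -0.27 ± 0.28 (SE), was not called (adjusted p = 0.49). Adamts9, a versican-cutting protease related to GON-1 of the nematode, had 4.32 and 5.66 FPKM in SC, against 19.7, 19.8 and 21.2 FPKM in EC, and 0.50, 0.64 and 0.63 FPKM in SMF. It was graded, with EC highest and SMF lowest, and the SC mean was 0.25 of the EC mean (log2 difference -1.84 ± 0.15, SE, adjusted p = 6.20e-05).

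The members of that subgroup called higher in SC were Adamts5, Adamts8, Adamts15 and Adamts20. Adamts5, the main aggrecanase of mouse cartilage, had 10.5 and 14.2 FPKM in SC, against 2.22, 1.82 and 1.57 FPKM in EC, and 0.24, 0.83 and 0.89 FPKM in SMF. Its SC mean was 6.62 times the EC mean (log2 difference 2.21 ± 0.23, SE, adjusted p = 0.00025). Adamts8 had 3.49 and 4.36 FPKM in SC, against 0.17, 0 and 0.18 FPKM in EC, and 0.28, 0.14 and 0.21 FPKM in SMF, and exceeded 1 FPKM in no EC or SMF library (log2 difference 2.14 ± 0.18, SE, adjusted p = 7.00e-05). Adamts20, a close relative of Adamts9 known in the mouse from the belted coat pattern, had 2.84 and 5.53 FPKM in SC, was listed at 0 in all 3 EC libraries, and had 0.12, 0.31 and 0.25 FPKM in SMF. It was called higher in SC than in EC (adjusted p = 0.00023). Adamts15 had 3.31 and 4.77 FPKM in SC, against 1.62, 0.75 and 1.43 FPKM in EC, and 0, 0.06 and 0 FPKM in SMF (log2 difference 1.16 ± 0.22, SE, adjusted p = 0.0051).

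Adamts1 and Adamts5, and Adamts8 and Adamts15, are neighbours on their chromosomes. On GRCm38.p6, the assembly that mm10 names, Adamts1 (chromosome 16, 85793827 to 85803113) and Adamts5 (85858157 to 85901125) are 55.0 kb apart. Adamts5 reached 0.13 and 0.19 of the Adamts1 level in SC, 0.01 to 0.02 of it in EC and 0.01 to 0.06 of it in SMF. Adamts15 (chromosome 9, 30899155 to 30922452) and Adamts8 (30942562 to 30963838) are 20.1 kb apart. Their levels were close to each other in SC, with a ratio of Adamts15 to Adamts8 of 0.95 and 1.09. In EC replicates 1 and 3 Adamts15 was 9.50 and 7.97 times Adamts8, which was listed at 0 in EC replicate 2, and in SMF neither exceeded 0.28 FPKM.

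**Figure D3:**
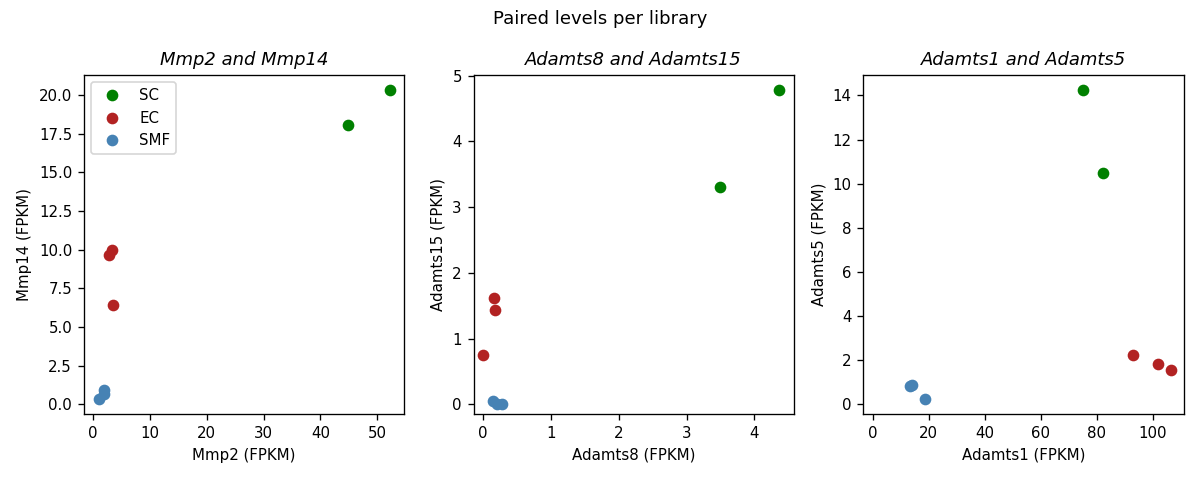
Levels in FPKM of 3 gene pairs, 1 point per library, coloured by population. Mmp2 and Mmp14 are both highest in SC, Adamts8 and Adamts15 are both highest in SC while EC points lie along the Adamts15 axis, and Adamts1 lies at 75.1 to 106 FPKM in both sorted populations while Adamts5 is highest in SC.

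The other ADAMTS genes were less abundant. Adamts10, which binds fibrillin microfibrils, had 9.49 and 7.99 FPKM in SC, against 2.98, 2.55 and 4.47 FPKM in EC, and 0, 0.06 and 0 FPKM in SMF, without overlap (SC minus EC log2 difference 1.19 ± 0.20, SE, adjusted p = 0.0029). The 4 Adamts10 transcripts of the transcript table as used here did not carry this level: they summed to 0 and 0.81 FPKM in SC and 1.02, 0.64 and 0 FPKM in EC. The deposited TPM table gave Adamts10 8.28 and 14.7 TPM in SC, against 4.36, 3.23 and 6.18 TPM in EC. Adamts2, which removes the amino-terminal propeptide of fibrillar procollagens, had 1.40 and 2.05 FPKM in SC, against 0.67, 0.09 and 0.85 FPKM in EC, and 0.21, 0.26 and 0.49 FPKM in SMF. Its call was weak (adjusted p = 0.039) and held under 6 of 19 alternative settings. Adamts6 had 0.56 and 0.07 FPKM in SC, against 0.92, 1.36 and 1.05 FPKM in EC, and 0.07, 0.10 and 0.08 FPKM in SMF. Its call as lower in SC (adjusted p = 0.037) held under 7 of 18 alternative settings, and not without EC replicate 2 (adjusted p = 0.066). Adamts7 and Adamts12, both known to cut cartilage oligomeric matrix protein, were not called between SC and EC. Adamts7 had 0.98 and 1.25 FPKM in SC, against 1.51, 1.50 and 2.72 FPKM in EC, and 0, 0 and 0.16 FPKM in SMF. Adamts12 had 3.36 and 3.71 FPKM in SC, against 5.16, 1.41 and 6.82 FPKM in EC, and 0.11, 0.07 and 0.19 FPKM in SMF. EC replicate 2 was the lowest EC library, and without it Adamts12 was called lower in SC (log2 difference -0.62, adjusted p = 0.028).

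Timp4 had the largest difference between SC and EC among the 22 genes on the log2(FPKM + 1) scale. This inhibitor, a TIMP of restricted tissue distribution known from heart and adipose tissue, had 0.32 and 0.54 FPKM in SC, against 51.5, 42.5 and 36.7 FPKM in EC, and 0.09, 0.06 and 0.13 FPKM in SMF. The SC mean was 0.0099 of the EC mean (log2 difference -4.95 ± 0.17, SE, adjusted p = 1.30e-06). Timp3, which is bound to the matrix and also inhibits Adamts4, Adamts5 and the sheddase Adam17, had 31.0 and 19.8 FPKM in SC, against 164, 171 and 165 FPKM in EC, and 4.66, 4.81 and 4.71 FPKM in SMF. It was the most abundant of the 42 genes in every EC library and was separated without overlap among all 3 populations (SC minus EC log2 difference -2.70 ± 0.19, SE, adjusted p = 3.40e-05). Timp2, which takes part with Mmp14 in the activation of Mmp2, had 56.9 and 61.1 FPKM in SC, against 14.8, 44.8 and 16.9 FPKM in EC, and 5.58, 10.1 and 8.36 FPKM in SMF. SC lay above EC, yet EC replicate 2 was 2.83 times the mean of the other EC libraries. The call with all libraries was close to the threshold (log2 difference 1.35 ± 0.45, SE, adjusted p = 0.048) and held under 3 of 19 alternative settings. Without EC replicate 2 it was 1.84 (adjusted p = 0.0020). Timp1, the inhibitor that is induced in injured tissue, was at 1.06 and 0 FPKM in SC, 0.70, 0 and 0 FPKM in EC and 0.22, 0 and 0 FPKM in SMF, and was not tested.

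**Figure D4:**
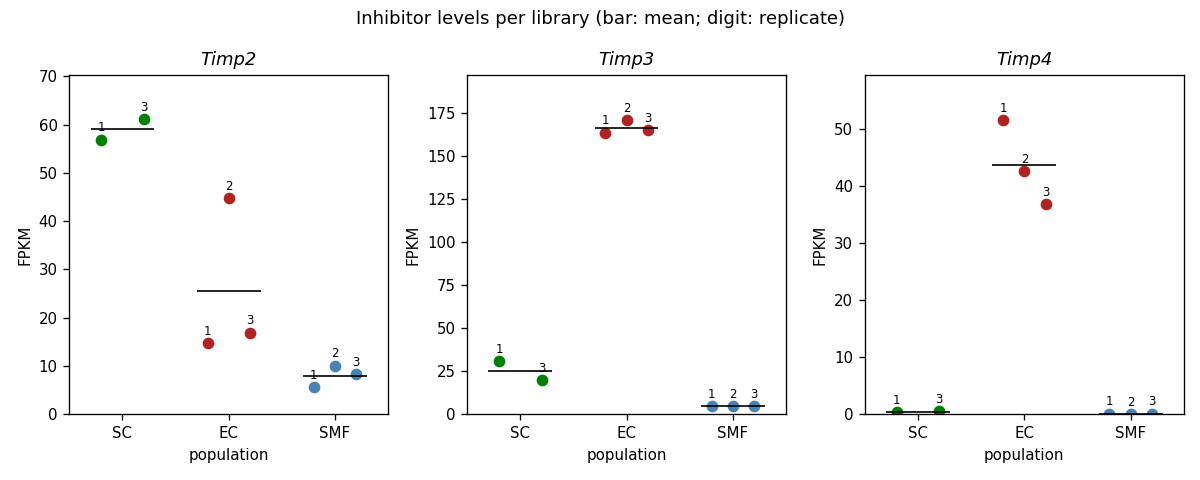
Levels of Timp2, Timp3 and Timp4 in FPKM for each library (points, with the replicate number above), with SC, EC and SMF from left to right and the group mean as a bar. Timp4 is near 0 outside EC, Timp3 is highest in EC at 164 to 171 FPKM, and EC replicate 2 lies apart for Timp2 at 44.8 FPKM.

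The ratio of Timp3 to Timp2 thus differed by population: 0.55 and 0.32 in SC, 11.1, 3.82 and 9.76 in EC and 0.84, 0.48 and 0.56 in SMF. By TPM, Timp3 stood above Timp2 in SMF replicate 1 (7.29 against 4.23 TPM) and below it in the other SMF libraries. The promoters of the 3 tested inhibitor genes are shown because these genes were called in opposite directions, and those of Mmp14 and Mmp28 beside them as an MMP called higher and an MMP called lower in SC. The calls of Timp2 and Mmp14 did not hold under every alternative. Each is the 250 bases before the RefSeq start on GRCm38.p6, on the strand of the gene. On both strands, letters of 5 known motifs were searched. The GC box was taken as GGGCGG. The form of E-box searched was CAGCTG. For AP-1 the letters were TGANTCA. The core bound by ETS factors was written CCGGAA. For the TATA box they were TATAAA. Capitals mark the matches, and no match overlaps another in these 5 sequences.
Timp2 (chr11:118355412-118355661, - strand): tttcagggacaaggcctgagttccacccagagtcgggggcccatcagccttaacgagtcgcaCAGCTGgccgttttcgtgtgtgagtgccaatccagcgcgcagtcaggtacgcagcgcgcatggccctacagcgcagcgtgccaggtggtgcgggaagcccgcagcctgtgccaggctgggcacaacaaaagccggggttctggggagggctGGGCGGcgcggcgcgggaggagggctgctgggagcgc
Mmp14 (chr14:54431348-54431597, + strand): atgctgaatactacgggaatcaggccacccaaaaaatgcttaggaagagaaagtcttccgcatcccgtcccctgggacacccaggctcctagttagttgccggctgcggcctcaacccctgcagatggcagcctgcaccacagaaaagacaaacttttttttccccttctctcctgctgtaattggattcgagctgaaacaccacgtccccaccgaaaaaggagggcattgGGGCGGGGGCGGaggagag
Timp3 (chr10:86300162-86300411, + strand): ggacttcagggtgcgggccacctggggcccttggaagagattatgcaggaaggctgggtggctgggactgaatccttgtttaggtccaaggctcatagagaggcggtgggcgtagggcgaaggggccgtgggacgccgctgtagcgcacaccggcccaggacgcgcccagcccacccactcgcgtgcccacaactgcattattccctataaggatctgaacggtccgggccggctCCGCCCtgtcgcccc
Timp4 (chr6:115252206-115252455, - strand): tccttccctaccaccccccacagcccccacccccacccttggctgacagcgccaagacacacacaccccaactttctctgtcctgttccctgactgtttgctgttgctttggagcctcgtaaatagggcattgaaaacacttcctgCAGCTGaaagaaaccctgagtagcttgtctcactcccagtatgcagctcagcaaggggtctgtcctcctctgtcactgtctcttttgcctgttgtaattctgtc
Mmp28 (chr11:83463041-83463290, - strand): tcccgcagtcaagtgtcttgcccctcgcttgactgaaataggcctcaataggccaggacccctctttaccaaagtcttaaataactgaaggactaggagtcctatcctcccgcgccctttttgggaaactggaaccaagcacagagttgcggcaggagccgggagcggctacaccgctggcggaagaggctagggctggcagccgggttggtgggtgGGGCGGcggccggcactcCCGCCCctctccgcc
Timp2 held a GC box and an E-box, Mmp14 and Mmp28 each held 2 GC boxes, Timp3 held 1 GC box, and Timp4 held an E-box and no GC box. The leading listed transcripts of Timp2 and Timp3 begin within these 250 bases, at 118355506 and 86300372. The GC boxes of both genes therefore lie inside those transcripts, not before them. Of all 32851 promoters of the table, 32.7% held the GC box, 13.0% the E-box, 6.75% the AP-1 site, 12.0% the ETS letters and 12.4% the TATA box. Of the 42 genes 29 matched the table, with 31 promoters, of which 16 held the GC box, 7 the E-box, 5 the AP-1 site, 1 the ETS letters and 6 the TATA box. The AP-1 matches all lay in the Mmp cluster of chromosome 9 (Mmp1a, Mmp1b, Mmp3, Mmp12 and Mmp13), and these genes stayed at or below 0.68 FPKM here. These matches are descriptions of letters, not binding sites.

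Markers of other cell types moved with part of this contrast. Of 10 markers of fibro-adipogenic progenitors, the mesenchymal cells of muscle, 3 were called higher in SC than in EC (Col3a1, Dpt and Gsn), 2 lower (Cd34 and Ly6a, which endothelial cells also express) and 5 were not called. The list summed to 472 and 463 FPKM in SC, 195 to 272 FPKM in EC and 40.3 to 108 FPKM in SMF. Pdgfra, the receptor that defines these cells, was at 1.31 and 1.70 FPKM in SC, 2.57, 0.22 and 1.85 FPKM in EC and 0.18, 0.56 and 0.54 FPKM in SMF. The 8 markers of pericytes and smooth muscle summed to 218 and 273 FPKM in SC, 580, 226 and 698 FPKM in EC and 28.8 to 29.9 FPKM in SMF. Of these, Rgs5, Pdgfrb, Kcnj8, Abcc9 and Myh11 were called lower in SC than in EC, Acta2 and Notch3 higher, and Cspg4 was not called. Rgs5 was at 11.7 and 4.81 FPKM in SC, against 392, 153 and 473 FPKM in EC, and Acta2 at 135 and 194 FPKM in SC, against 50.2, 31.5 and 65.6 FPKM in EC. Their part in the levels of Mmp2, Timp2 or any other gene was not tested. In EC replicate 2, 5 of the 22 genes were above both other EC libraries and 11 below both, which is 22.7% and 50.0%, against 24.7% and 46.6% of all genes tested. Timp3, Timp4, Adamts9 and Adamts1 in that library were 1.04, 0.96, 0.97 and 1.02 times the mean of the other EC libraries. Adamts12, Adamts2, Mmp15 and Mmp14 were 0.24, 0.12, 0.51 and 0.65 times it.

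Satellite cells were next set against fibres, although most of the 22 genes had passed the filter through the sorted cells alone. Of the 22 genes, 17 were higher in SC, 0 were lower by limma (also 0 at an unadjusted p under 0.05) and 5 were not called, where 56.5% of all tested genes were called higher and 8.57% lower. Such a broad lean towards SC belongs to the whole table: the median log2 difference, SC minus SMF, was 2.02 for the 22 genes and 0.93 for all genes. Other scalings shifted the median of all genes to 0.21, 0.37 and 0.44. Relative to the median of all genes, 17 of the 22 genes lay above it as deposited and 18 of 22 lay above it under each of the 3 scalings. All 7 tested proteoglycanases were higher in SC. On the log2(FPKM + 1) scale Mmp2 had the largest difference (4.25 ± 0.20, SE, adjusted p = 3.26e-06), followed by Mmp14 (3.63 ± 0.23, SE, adjusted p = 9.18e-06) and Adamts10 (3.25 ± 0.20, SE, adjusted p = 9.69e-06). With a constant of 0.1 in place of 1, Adamts10 (6.22) and Adamts15 (5.13) stood above Mmp2 (4.86) and Mmp14 (4.76). Adamts4 differed by 3.05 ± 0.28 (SE), Adamts5 by 3.03 ± 0.23, Timp2 by 2.77 ± 0.45, Adamts15 by 2.29 ± 0.22, Adamts1 by 2.29 ± 0.18 and Timp3 by 2.17 ± 0.19, with adjusted p-values of 2.39e-05 to 0.0010. The calls of Adamts8, Adamts9, Adamts20, Adamts12, Mmp19, Mmp11, Adamts2 and Adamts7 rested on differences of 1.00 to 2.03. Timp2 lost its call under median-of-ratios scaling (1.27, adjusted p = 0.066), and Adamts2 lost its call under all 3 scalings and without SC replicate 3.

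The 5 genes not called between SC and SMF were Adamts6, Mmp8, Mmp15, Mmp28 and Timp4. Timp4 differed by 0.39 ± 0.17 (SE, adjusted p = 0.082), from levels that correspond to 5.99 and 8.88 fragments of its leading transcript in SC and 2.97, 1.98 and 3.95 fragments in SMF, and it was called with a smaller pseudocount and when the 2 groups were fitted alone. Mmp15 differed by 0.08 ± 0.31 (SE, adjusted p = 0.84). Its sign turned under all 3 other scalings, and with median-of-ratios scaling it was called lower in SC (-0.82, adjusted p = 0.048).

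Endothelial cells were also set against fibres, with the same limit from the filter. Of the 22 genes, 18 were higher in EC, 0 were lower by limma (also 0 at an unadjusted p under 0.05) and 4 were not called, where 55.5% of all tested genes were called higher and 10.8% lower. The median log2 difference, EC minus SMF, was 1.43 for the 22 genes and 0.85 for all genes. Under the other scalings the median of all genes became 0.20, 0.28 and 0.55, while 16, 16 and 17 of the 22 genes lay above it, against 16 as deposited. All 3 tested inhibitors were higher in EC. Timp4 led with 5.34 ± 0.16 (SE, adjusted p = 1.51e-07), followed by Timp3 with 4.87 ± 0.17 (SE, adjusted p = 3.26e-07). Among the proteases, Adamts9 differed by 3.74 ± 0.13 (SE, adjusted p = 3.16e-07), Adamts4 by 3.33 ± 0.25, Adamts1 by 2.64 ± 0.16, Mmp14 by 2.55 ± 0.20 and Mmp15 by 2.46 ± 0.28 (SE, adjusted p at most 0.00012). Mmp28, listed at 0 in every SMF library, was also called (adjusted p = 5.22e-06). Adamts6, Adamts7, Adamts10, Adamts12, Adamts15, Mmp11 and Mmp19 made up the other calls apart from those named next, at differences of 0.91 to 2.12.

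The calls of Mmp2, Adamts5 and Timp2 depended on the scaling. Mmp2 was called higher in EC (0.70 ± 0.18, SE, adjusted p = 0.0096), but its difference was -0.28 under median-of-ratios scaling, -0.17 under upper-quartile scaling and 0.23 without the 50 most abundant genes, and it was called under none of these 3. Adamts5 (0.82 ± 0.21, SE, adjusted p = 0.0096) and Timp2 (1.41 ± 0.40, SE, adjusted p = 0.015) kept their sign and lost their calls under all 3. The 4 genes not called were Adamts2, Adamts8, Adamts20 and Mmp8. Adamts20 was listed at 0 in EC and had 0.12 to 0.31 FPKM in SMF, and it was called lower in EC under 5 of 19 alternative settings. Mmp8 was called higher in EC without EC replicate 2 (1.14, adjusted p = 0.017).

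**Figure D5:**
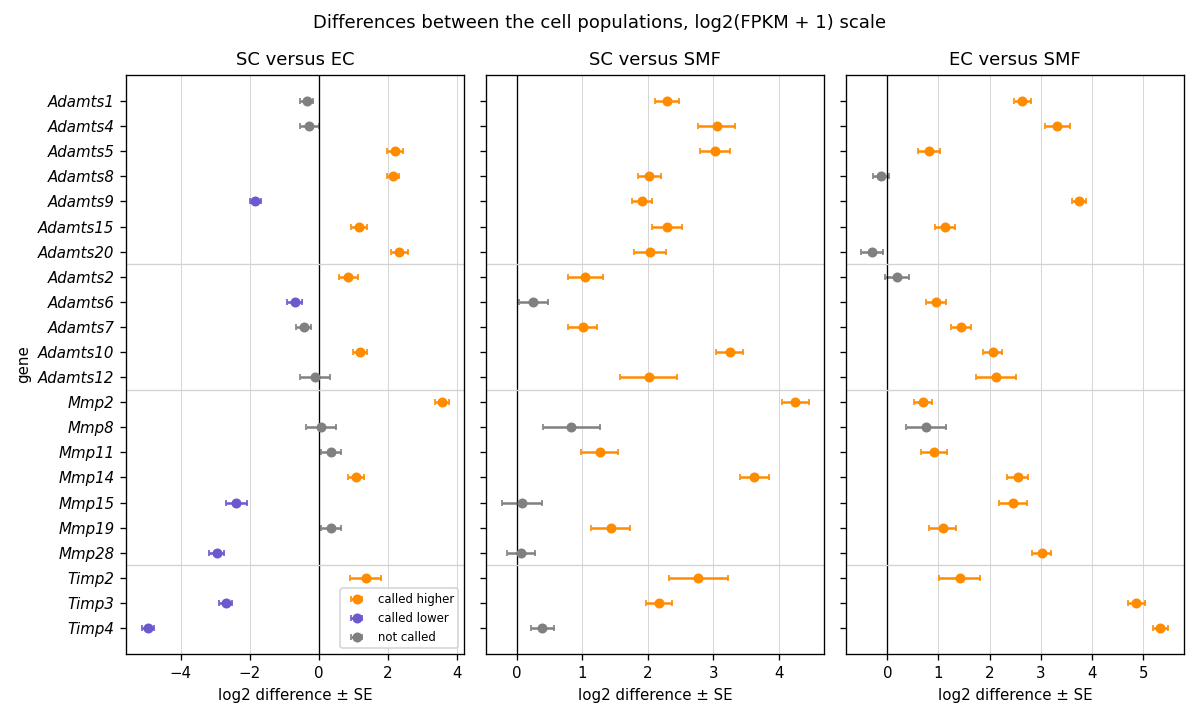
Log2 differences with their standard errors for the 22 tested genes in SC versus EC, SC versus SMF and EC versus SMF (panels from left to right, positive values meaning higher in the population named first), coloured by call. In the left panel 9 genes lie on the side of SC and 6 on the side of EC among those called, while all calls of the other panels lie to the right of 0.

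Among fibre libraries, SMF replicate 1 had the lowest level of Mmp2, Mmp14, Adamts5 and Timp2, at 1.03, 0.37, 0.24 and 5.58 FPKM, and the highest of Adamts1, at 18.7 FPKM. In the same library the summed markers of fibro-adipogenic progenitors were 40.3 FPKM, against 108 and 98.8 FPKM in the other SMF libraries, and those of tenocytes, the cells of tendon, 31.9 FPKM against 2.06 and 4.16 FPKM. Col1a1 alone of the progenitor list went the other way, at 7.58 FPKM in replicate 1 against 3.60 and 2.81 FPKM. The part of either cell type in the levels of Mmp2, Mmp14, Adamts5, Timp2 and Adamts1 was not tested. Timp3 varied little among fibre libraries, between 4.66 and 4.81 FPKM.

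The genes that stayed below the filter included well-known members. Mmp9, gelatinase B, had 0.20 and 0.21 FPKM in SC, 0.60, 0 and 1.74 FPKM in EC and was listed at 0 in all SMF libraries. The collagenases Mmp1a, Mmp1b and Mmp13 did not exceed 0.47 FPKM in any library. Adamts13, which trims von Willebrand factor in plasma and is made mainly in liver, was listed at 0 in all libraries but SC replicate 3, at 0.21 FPKM. Among the procollagen N-proteinases, Adamts14 had 0.84 and 2.74 FPKM in SC and at most 0.06 FPKM elsewhere, and Adamts3 at most 0.18 FPKM anywhere. Just inside the filter lay Adamts6 and Adamts2, with a second highest value of 1.05 and 1.40 FPKM, and just outside it Adamts14 and Timp1, with 0.84 and 0.70 FPKM.

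Several of these genes overlap another gene on the genome, and whether the authors' assignment of reads used the strand is not given in the sources used here. Timp1, Timp3 and Timp4 each overlap a synapsin gene (Syn1, Syn3 and Syn2), and these had at most 0.73, 0.32 and 1.03 FPKM in any library, far below the inhibitors' EC levels for Timp3 and Timp4. Mmp28 overlaps 1700020L24Rik, which had 0.97, 2.35 and 2.56 FPKM in EC and was listed at 0 in SC and SMF, so that both genes were highest in EC.

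Further genes of matrix proteolysis were counted from lists of other enzymes, activators and cofactors, to be read against the 21.2% of all tested genes called higher and 16.4% called lower in SC than in EC. The plasmin cascade also activates MMP precursors. Of its 5 tested genes, 2 were higher in SC against EC and 0 lower by limma (0 lower also at an unadjusted p under 0.05), with a median log2 difference of 0.60 against 0.11 for all genes. Plau (urokinase) had 46.5 and 50.3 FPKM in SC, against 7.60, 7.09 and 4.88 FPKM in EC (log2 difference 2.73 ± 0.26, SE, adjusted p = 0.00013). Among other inhibitors and regulators of MMPs, 3 of 6 were higher in SC and 2 lower, with a median of -0.03. Thbs2, which takes up Mmp2 for clearance, had 66.0 and 32.5 FPKM in SC, against 1.62, 0.57 and 1.95 FPKM in EC (4.37 ± 0.38, SE, adjusted p = 8.74e-05), and Bsg, an inducer of MMPs, was lower in SC (-1.38 ± 0.25, SE, adjusted p = 0.0041). Of 7 tested genes for membrane-anchored ADAM proteins, 1 was higher in SC and 2 lower (median -0.42). Adam15 had 0.67 and 1.09 FPKM in SC, against 12.4, 13.2 and 15.0 FPKM in EC (-2.95 ± 0.16, SE, adjusted p = 7.66e-06).

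Procollagen processing genes split as well: 2 of 4 were higher in SC and 1 lower (median 0.71). Bmp1, the procollagen C-proteinase, had 14.6 and 21.3 FPKM in SC, against 3.96, 1.42 and 4.25 FPKM in EC (log2 difference 2.23 ± 0.38, SE, adjusted p = 0.0029). Its relative Tll1 had 0.22 and 0.29 FPKM in SC, against 6.08, 26.5 and 6.44 FPKM in EC, and EC replicate 2 was again apart (-3.17 ± 0.54, SE, adjusted p = 0.0027). The ADAMTS-like genes, which lack the protease domain, gave 2 higher and 2 lower of 5 (median 0.45). Adamtsl3, 1 of those lower, had 0.05 and 0.49 FPKM in SC, against 3.32, 3.60 and 3.58 FPKM in EC. Of 4 proprotein convertases, which activate many of these precursors, 2 were lower in SC and 0 higher by limma (1 higher at an unadjusted p under 0.05; median -0.40). Furin, which cuts the Mmp14 precursor, was not called (difference -0.0011 ± 0.22, SE, adjusted p = 1). Of the substrates, versican (Vcan) and perlecan (Hspg2) were tested, and 0 of 2 were called between SC and EC by limma (0 also at an unadjusted p under 0.05). Cathepsins and their inhibitor gave 0 higher and 2 lower of 6 by limma (0 higher also at an unadjusted p under 0.05; median -0.61). The lower ones were Ctsd and the inhibitor Cst3 (cystatin C), which had 21.0 and 16.4 FPKM in SC, against 111, 149 and 120 FPKM in EC (-2.69 ± 0.21, SE, adjusted p = 4.72e-05).

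Against SMF these lists mostly leaned to the sorted cells, as all genes did (56.5% higher and 8.57% lower in SC, 55.5% higher and 10.8% lower in EC). Of the 5 plasminogen genes, 4 were higher and 1 lower in SC, and 2 were higher and 1 lower in EC. The 1 lower in both was Serpine2, an inhibitor of serine proteases, at 2.38 and 2.24 FPKM in SC, 1.91, 0.98 and 1.75 FPKM in EC and 6.57, 6.16 and 5.87 FPKM in SMF. Of the 7 ADAM genes, 6 were higher in SC and 6 in EC. Adam9 was the exception in both, at 10.7 to 12.2 FPKM in SC, 10.1 to 11.0 FPKM in EC and 6.60 to 9.62 FPKM in SMF. Bsg was highest in fibres, at 44.4 and 37.5 FPKM in SC, 93.0, 149 and 90.4 FPKM in EC and 201, 179 and 216 FPKM in SMF, and it was lower in SC (-2.25 ± 0.25, SE, adjusted p = 0.00015) and in EC (-0.87 ± 0.23, SE, adjusted p = 0.010).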

How the data were processed

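Deposited values were used as they stand. The submitters' processing notes name build mm10 with HISAT2, StringTie, Trimmomatic, bedtools and FastQC; versions and settings: not given in the sources used here. The authors deposited FPKM per gene and per transcript, TPM per locus, a specificity score (not used here) and mean read coverage per transcript. Fragments were estimated as coverage times length over 100 bases. The 16700 genes reaching 1 FPKM in 2 or more libraries entered limma 3.58.1 (R 4.3.3; mean-variance trend, log2 of FPKM + 1), with the 8 libraries in 1 fit, two-sided, Benjamini-Hochberg adjusted, called at an adjusted p under 0.05. The members and lists were chosen with earlier results of these data known. All members were accounted for, and values in every library were given for those above the filter and for some below it; up to 3 of the most abundant called genes of each further list were named, with some genes named after their values were seen. The calculation was tested on simulated data. Sequences came from RefSeq (GRCm38.p6) and GENCODE vM39. Alternatives were the pseudocount, filter, scaling, trend, TPM table, replicate block, fits of 2 groups and leaving out each library. Some items are not reported here.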

Additional observations from a re-analysis of the deposited data

How the results depend on the processing

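Between SC and EC, 13 of 22 genes kept direction and call in every alternative (SC versus SMF 17, EC versus SMF 16). Counts of genes called ranged from 6 to 9 higher and 5 to 7 lower (SC versus EC), 15 to 19 higher and 0 to 1 lower (SC versus SMF), and 15 to 21 higher and 0 to 1 lower (EC versus SMF); leaving out 1 library gave 6 to 9 and 5 to 6, 17 and 0, and 17 to 19 and 0 to 1. The 1 gene lower in SC than SMF, under median-of-ratios scaling, was Mmp15. The 1 gene lower in EC than SMF was Adamts20, with pseudocount 0.1, median-of-ratios scaling, the 2 groups alone, or without SC replicate 1 or 3. Signs turned as follows, uncalled except where stated, and the cause was not tested. For SC versus EC, Mmp8 was -0.0035 with median-of-ratios scaling, -0.017 without the 50 most abundant genes and -0.11 with the replicate block. Leaving out 1 library gave -0.43 to 0.58 for Mmp8 (-0.43 without SC replicate 3, -0.30 without EC replicate 2), -0.021 to 0.73 for Mmp11 (-0.021 without SC replicate 1), -0.73 to 0.18 for Adamts4 (0.18 without SC replicate 3) and -0.62 to 0.23 for Adamts12 (0.061 and 0.23 without EC replicates 1 and 3; -0.62, called, without EC replicate 2). For SC versus SMF, Mmp15 was -0.82 (called), -0.63 and -0.49 with the 3 scalings, -0.045 with the replicate block, and -0.10 and -0.083 without SC replicate 3 and SMF replicate 3 (-0.10 to 0.25 over all single libraries). Adamts6 was -0.013 to 0.52 (-0.013 without SC replicate 1; 0.52, called, without SC replicate 3). For EC versus SMF, Mmp2 was -0.28 and -0.17 with median-of-ratios and upper-quartile scaling, and Adamts2 -0.23, -0.18 and -0.013 with the 3 scalings.

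As deposited, 56.3% of all calls were higher in SC than EC, 86.8% in SC than SMF and 83.7% in EC than SMF. Median-of-ratios scaling gave 47.4%, 55.1% and 56.6%, upper-quartile scaling 57.2%, 65.0% and 60.1%, and scaling without the 50 most abundant genes 39.0%, 69.2% and 72.8%. For pairing, each library was taken as its deviation from the mean of its own population. Same-numbered libraries of different populations then correlated at -0.058 to 0.091, and differently numbered ones at -0.091 to 0.058. The SC libraries deviate from their mean by equal and opposite amounts, so each SC correlation recurs with the opposite sign. The SC values therefore cannot decide whether the numbers mark pairs. The ends of both ranges come from SC, so their overlap was fixed in advance. Between EC and SMF, same-numbered libraries correlated at -0.018, 0.014 and 0.0031, and differently numbered ones at -0.040 to 0.043. The numbers were not taken as pairs. With the replicate block Adamts2 and Adamts6 lost their SC versus EC calls. Genes near 1 FPKM rest on few fragments and their differences are imprecise.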

Other observations

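The deposited TPM table holds 46 loci whose symbols follow the same naming rule, 4 more than the gene table. Adamts19, Mmp7 and Mmp10 were listed at 0 TPM in all 8 libraries, and Mmp20 had 0.06 TPM in EC replicate 1 and 0 elsewhere. The Mmp cluster on chromosome 9 (GRCm38.p6, 7272514 to 7581885) holds 7 of the 42 genes, of which Mmp8 was the only one tested and the highest, at 1.59 FPKM in EC replicate 1.

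The transcript table gives estimates for 104 transcripts of these genes, not tested. It lists 89871 transcripts with numbers up to 115219, so shares below are of the fragments estimated for the listed transcripts only. Timp3 came mainly from ENSMUST00000020234, which held 93.1% and 87.9% of these fragments in SC, 93.9%, 95.8% and 91.3% in EC and 87.7%, 91.0% and 89.4% in SMF. For Adamts9, ENSMUST00000130314 had 0 and 0 FPKM in SC, against 4.60, 7.03 and 7.70 FPKM in EC. ENSMUST00000203690, a transcript of a single exon, held 79.0% and 60.0% of the listed Adamts9 fragments in SC and 8.10% to 21.1% in EC. The listed Adamts9 transcripts summed to 1.86 and 1.64 FPKM in SC and 12.6, 16.8 and 15.1 FPKM in EC, below the level of the gene table in every one of these libraries. For Mmp28 in EC, the second transcript, ENSMUST00000108137, held 34.2% in replicate 1, 4.70% in replicate 2 and 5.83% in replicate 3, while ENSMUST00000103209 held the rest.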
